A study of Mus musculus with 2 samples.

Results

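Homeostatic microglia were the resting brain macrophages in 2 single-cell RNA sequencing libraries of mouse brain, 1 from E3 and 1 from E4 mice. They were chosen by counts of transcripts, each read through its unique molecular identifier (UMI), in 2357 of 11485 E3 barcodes and 2708 of 13802 E4 barcodes, or 5065 of 25287 in all. A barcode was kept with 1500 to 50000 UMIs, at most 30% mitochondrial UMIs, at least 5 UMIs of C1qa, C1qb and C1qc together, and at least 2 UMIs of P2ry12, Tmem119, Siglech and Cx3cr1 together. It was left out with 2 or more UMIs of the border macrophage genes Mrc1, Pf4 and F13a1, 6 or more of the astrocyte genes Aldoc and Gja1, 2 or more of Ccl3, Ccl4 and Atf3, 3 or more of Ifit2, Ifit3, Irf7, Isg15, Cxcl10 and Rsad2, or 3 or more of Cst7, Lpl, Itgax and Spp1. These values chose the cells, so the levels of the genes of the rule are given as a description.

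Both groups were female mice of 11 to 12 months in which the coding sequence of mouse Apoe was replaced by human APOE, so that E3 and E4 animals differed by the APOE3 or APOE4 allele and neither group carried mouse apolipoprotein E. Right hemispheres without brainstem and cerebellum were pooled from 3 mice per genotype, dissociated with enzymes at a warmed setting and loaded as 1 library per genotype. The study asked how E4 alters energy metabolism in the cells of the brain. With 1 library per genotype no test between genotypes was possible, the 3 mice could not be told apart, and genotype cannot be told apart from the library or from the version of the counting software, which differed between the libraries.

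Microglia arise from the yolk sac, depend on signalling through the CSF1 receptor and on TGF-beta, and fill the healthy brain with fine moving processes. In that surveying state they carry the purine receptor P2RY12, the fractalkine receptor CX3CR1, the surface proteins TMEM119 and Siglec-H, and make most of the complement component C1q of the brain. When they are activated by injury, amyloid or tissue dissociation, several of these genes are lowered while chemokines, immediate-early genes or a disease-associated programme come on.

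**Figure D1:**
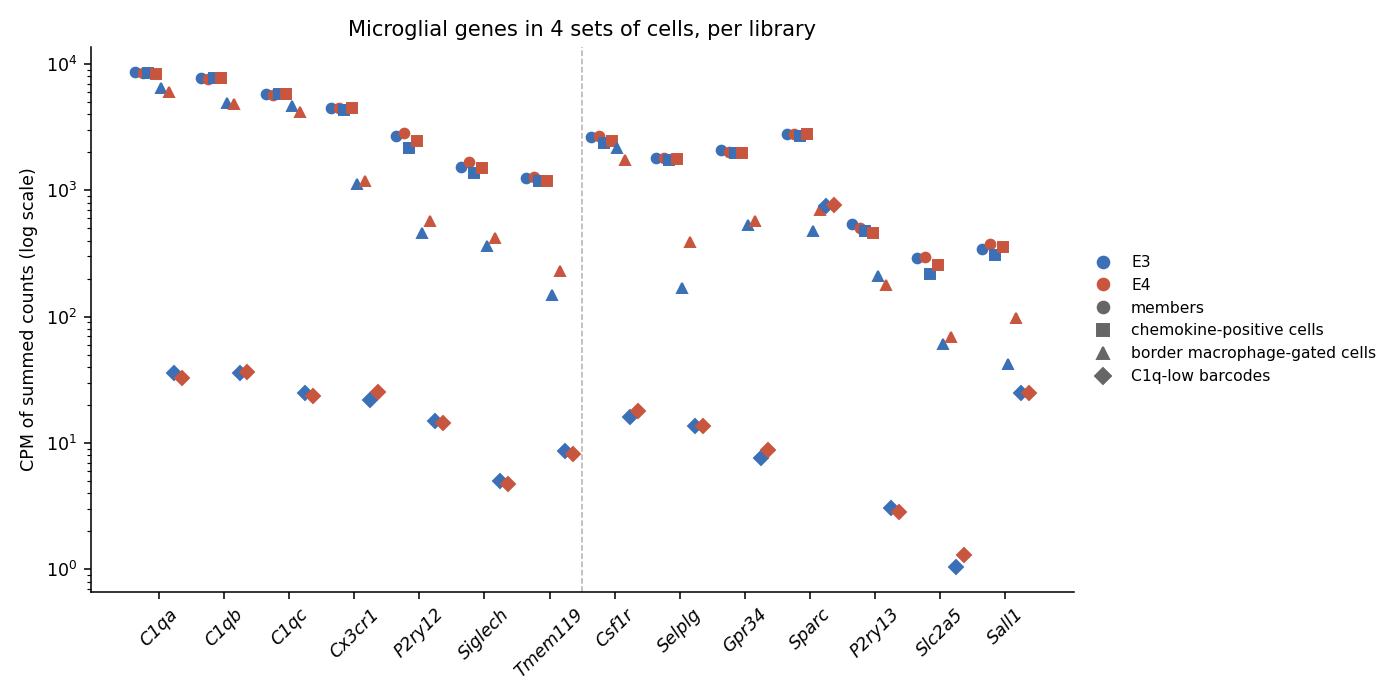
Levels of 14 microglial genes as counts per 1000000 summed UMIs (CPM), on a log axis, with 1 point per library (colour) and set of cells (shape). The 7 genes left of the dashed line were used by the rule. Homeostatic microglia and chemokine-positive cells lay close together for every gene drawn, border macrophage-gated cells lay below both for Sall1, Selplg and Sparc, and C1q-low barcodes lay lowest for every gene drawn but Sparc.

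Complement C1q is the first component of the classical complement pathway and is made from 3 genes that lie side by side. Levels are given as counts per 1000000 summed UMIs (CPM), with the E3 library before the E4 library. C1qa was read at 8631 and 8503 CPM in homeostatic microglia. C1qb was at 7816 and 7666 CPM, and C1qc at 5774 and 5685 CPM. All 3 were within a few percent of each other between the libraries, with log2 ratios of E4 to E3 of -0.02, -0.03 and -0.02. In C1q-low barcodes, those with fewer than 5 UMIs of the 3 genes and otherwise mostly other brain cells, C1qa was read at 36.1 and 32.4 CPM.

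Among the identity genes, Cx3cr1 was at 4496 and 4516 CPM and had a UMI in 99.6% and 99.5% of the cells. P2ry12 was at 2676 and 2853 CPM and was seen in 2336 of 2357 and 2682 of 2708 cells. Siglech was at 1530 and 1663 CPM, in 2315 of 2357 and 2681 of 2708 cells. Tmem119, a membrane protein that marks microglia among brain macrophages, was at 1246 and 1265 CPM, in 97.2% and 97.7% of the cells. Since the rule asked for only 2 UMIs over the 4 genes together, nearly every cell carried more of them than the rule required: the median sum was 39 UMIs in E3 and 46 in E4. P2ry12 was read in 8.44% and 8.07% of C1q-low barcodes, whose median depth was 4684 and 4565.5 UMIs against 3728 and 4216 in homeostatic microglia. The part of free RNA in the droplets in this share was not tested. The ratio of E4 to E3 was 0.09 on the log2 scale for P2ry12 (counting interval 0.07 to 0.12), 0.12 for Siglech (0.09 to 0.15), 0.02 for Tmem119 (-0.01 to 0.06) and 0.01 for Cx3cr1 (-0.01 to 0.02). These intervals, like all others given here, are exact 95% intervals that cover counting error only.

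Few cells lay near the limits on the genes that define microglia. At the C1q limit, 0 E3 and 2 E4 cells had exactly 5 UMIs, and 3 and 1 barcodes with 4 UMIs were the nearest outside. At the identity limit, 8 and 12 cells had 2 UMIs, against 8 and 13 barcodes just outside with 1. The chemokine limit lay in a denser range, where 326 E3 and 433 E4 cells had 1 UMI of Ccl3, Ccl4 and Atf3, and 112 and 181 barcodes just outside had 2. Clec7a, the other gene that the rule names among the disease-associated genes, was not analysed here, so that gate was read on 4 genes.

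The label was checked on genes outside the rule. Csf1r, the receptor on which microglia depend to survive, was at 2661 and 2670 CPM and was read in 99.9% and 99.7% of cells. Sall1, a transcription factor of microglia that other macrophages lack, was at 345 and 379 CPM and was read in 68.4% and 75.8% of cells, against 12.5% and 12.0% of C1q-low barcodes. Several markers of blood-borne and border cells were at or near 0 and others were not: the monocyte gene Ly6c2 and the granulocyte gene S100a8 had 0 UMIs in both libraries, and the perivascular macrophage genes Cd163 and Lyve1 had 0 and 2 UMIs in E3 and 3 and 1 in E4. Stab1, a scavenger receptor, was at 143 and 148 CPM, Dab2 at 14.1 and 18.0 CPM, Ccl24 at 9.68 and 9.88 CPM and the monocyte receptor Ccr2 at 6.35 and 7.73 CPM. As a description, the 15 leading genes by the lower of both libraries' ratios to C1q-low barcodes, of which Siglech, C1qa, C1qc and C1qb were used by the rule, were 1600022D10Rik, Gm15503, Gm26520, Gm34589, Siglech, Susd3, Ly86, Gm10384, C1qa, C1qc, Gpr34, Slc2a5, Gm13479, C1qb and Cd86, and 2549 of 13405 genes read (19%) were at least 1.5-fold higher in homeostatic microglia in both libraries. Gpr34, a lysophosphatidylserine receptor, led by 8.09 and 7.83 on the log2 scale. Slc2a5, the fructose transporter GLUT5, led by 8.12 and 7.82, and Ly86, a partner of the innate receptor RP105, by 7.94 and 8.16.

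The libraries held 56415229 and 71625170 UMIs in all, of which homeostatic microglia held 9605256 and 12553867. E4 cells were read deeper, with medians of 4216 UMIs and 1900.5 genes against 3728 UMIs and 1717 genes in E3, and after thinning to 1500 UMIs the medians were 898 and 882 genes. The median mitochondrial share was 2.85% in E3 and 3.24% in E4. The libraries shared 46 barcodes, of which 1 was a homeostatic microglia in both. In 194 E3 (8.23%) and 229 E4 cells (8.46%) at least 20 UMIs came from 1 of 7 lists of other cell types, and these cells held most of some lists: 93.9% and 98.2% of all haemoglobin-list UMIs lay in 8 and 6 cells, and 93.6% and 94.3% of choroid plexus and ependymal UMIs lay in 28 and 40 cells. Transcripts overlapping ribosomal RNA summed to 27373 and 11743 CPM, and Hbb-bs, the beta chain of haemoglobin, was read in 31.8% of E3 and 9.34% of E4 homeostatic microglia. Values that rest on cells with other cells' transcripts are given below with and without those cells, and the part of depth, free RNA and ribosomal transcripts in the remaining differences was not tested.

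Homeostatic microglia made up 20.5% (19.8 to 21.3, exact binomial interval) of E3 and 19.6% (19.0 to 20.3) of E4 barcodes. Of the barcodes that passed the depth, mitochondrial, C1q and identity limits, they were 69.2% (67.6 to 70.8) of 3405 in E3 and 62.1% (60.7 to 63.6) of 4360 in E4. The chemokine limit removed the most at that stage, 739 barcodes in E3 and 1140 in E4. With the limits read on cells thinned to 1500 UMIs each, so that depth was equal, the share of all barcodes was 23.6% in E3 and 24.2% in E4, which turned the order of the libraries. The median depth of the cells was 3728 UMIs in E3 and 4216 in E4.

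The core programme of homeostatic microglia had close levels in E3 and E4. Of 39 homeostatic genes outside the rule, 22 were higher and 17 lower in E4, with a median log2 ratio of 0.010 against 0.056 over all 11603 genes read with at least 50 UMIs, of which 62% were higher and 38% lower in E4. None of the 39 was 1.5-fold apart, against 4.74% of all genes and 1.31% of placed genes with at least 200 UMIs. With mitochondrial, haemoglobin and ribosomal transcripts taken out of the totals the split turned to 17 higher and 22 lower, with a median of -0.0091.

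Sparc, an extracellular matrix protein of microglia, was at 2794 and 2814 CPM. Selplg, the P-selectin ligand, was at 1803 and 1796 CPM. Gpr34 was at 2079 and 2015 CPM. These abundant genes differed by at most 0.05 on the log2 scale. P2ry13, another receptor for adenine nucleotides, was at 545 and 499 CPM, a ratio of -0.13 (-0.18 to -0.07). Olfml3, a secreted matrix protein, was at 1333 and 1264 CPM, a ratio of -0.08. Among the genes that were higher in E4, Pmepa1, a target and inhibitor of TGF-beta signalling, was at 770 and 916 CPM, a ratio of 0.25 (0.21 to 0.29). Cd33, a sialic acid-binding receptor that is a risk gene for Alzheimer's disease, was at 324 and 370 CPM, a ratio of 0.19 (0.13 to 0.26). The ratio farthest from 0 in the list was that of Upk1b, a tetraspanin, at 49.2 and 65.6 CPM and 0.41 (0.25 to 0.58). When the cells were divided by UMIs into 3 depth classes of like size, 22, 26 and 34 of the 39 genes were higher in E4 in the shallow, middle and deep class.

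Of the transcription factors that set microglial identity, 15 of 21 measured were higher in E4, where 62% of all genes were. The median ratio was 0.12, against 0.056 over all genes. None was 1.5-fold apart, against 4.74% of all genes and 1.31% of placed genes with at least 200 UMIs. Runx1 was at 174 and 210 CPM, a ratio of 0.27 (0.18 to 0.36). Fli1 was at 156 and 186 CPM, a ratio of 0.26. Mef2a was at 744 and 837 CPM, a ratio of 0.17 (0.13 to 0.21), and Irf8, which microglia need to develop, was at 437 and 483 CPM, a ratio of 0.14. Spi1, which codes for the lineage factor PU.1, was at 342 and 349 CPM, a ratio of 0.03 whose interval spanned 0. Mef2c was at 1160 and 1144 CPM, and Maf was at 1037 and 980 CPM, a ratio of -0.08 (-0.12 to -0.04).

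In the TGF-beta list, 12 of 15 genes were higher in E4, where 62% of all genes were, with a median of 0.099 against 0.056. The receptor gene Tgfbr1 was at 1114 and 1106 CPM. In the CSF1 receptor list, 9 of 12 were higher with a median of 0.072. Tyrobp, the adaptor that passes on signals of TREM2 and other receptors, was at 3124 and 2942 CPM, a ratio of -0.09 (-0.11 to -0.06). Of 10 purine receptors and ectonucleotidases, 8 were higher, with a median of 0.10, and 2 were at least 1.5-fold higher, where 3.18% of all genes were. These were Adora1 from 16 and 49 UMIs (1.23) and P2ry14 from 14 and 37 UMIs (1.02). Both passed the limit of 50 UMIs over both libraries only with their E4 counts, so they could be listed only as higher in E4. Entpd1, the ectonucleotidase CD39, was at 490 and 465 CPM, a ratio of -0.08.

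Receptors for debris and immune complexes had a median ratio of 0.056, the same as all genes, with 20 of 27 higher in E4, where 62% of all genes were. Trem2, the lipid receptor in which rare variants raise the risk of Alzheimer's disease, was at 2108 and 2139 CPM. Fcer1g, the common gamma chain of Fc receptors, was at 2444 and 2257 CPM, a ratio of -0.11 (-0.14 to -0.09). Lair1, an inhibitory collagen receptor, was at 436 and 515 CPM, a ratio of 0.24 (0.18 to 0.29). The 1 member of this list past 1.5-fold was C5ar1, a receptor for the complement fragment C5a, described below.

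Genes of the disease-associated programme outside the rule had a median of 0.060, near that of all genes, with 21 of 26 higher in E4. For this and the lists that follow, 62% of all genes were higher in E4, with a median of 0.056. Lyz2, lysozyme, was at 262 and 317 CPM, a ratio of 0.28 (0.20 to 0.35). Cd52, a small surface glycoprotein, was at 232 and 173 CPM, a ratio of -0.42 (-0.51 to -0.34). Cd9 was at 895 and 993 CPM, a ratio of 0.15. The 48 lysosomal genes had a median of 0.072, with 36 higher, while Cst3, cystatin C, which took more UMIs than any other gene of these lists, was at 57223 and 52060 CPM, a ratio of -0.14 (-0.14 to -0.13). Of 24 genes of lipid and cholesterol handling, 17 were higher with a median of 0.074; the cholesterol exporter Abca1 was at 380 and 422 CPM and the lipoprotein receptor Lrp1 at 276 and 314 CPM, ratios of 0.15 and 0.18. Apoe was read at 16.6 and 15.4 CPM in homeostatic microglia, against 106 and 124 CPM in C1q-low barcodes. Reads were aligned to the mouse genome, while these mice carry human APOE in place of the mouse coding sequence. How far the Apoe counts measure human APOE was not tested. Of 33 Alzheimer risk genes that microglia express, 22 were higher, with a median of 0.044.

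**Figure D2:**
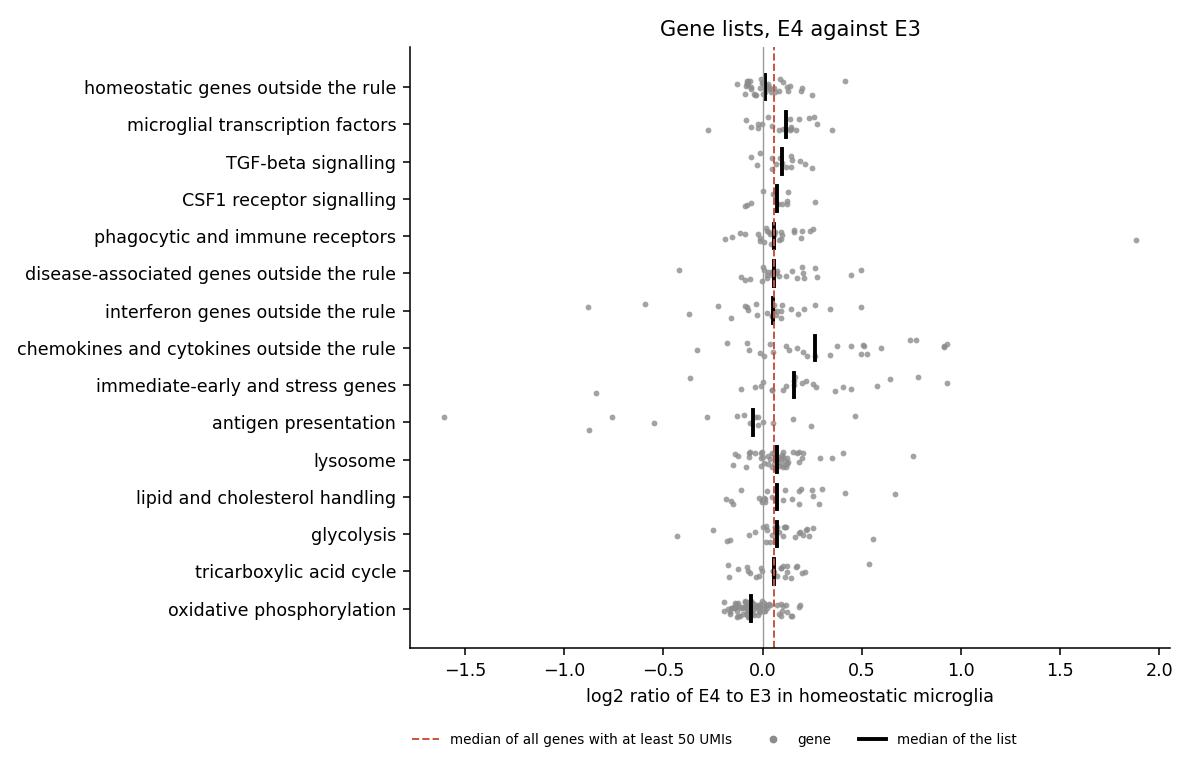
Log2 ratio of E4 to E3 (horizontal axis) for each measured gene of 15 lists in homeostatic microglia, with 1 grey point per gene and a black bar at the median of each list. The dashed line is the median of all genes with at least 50 UMIs, 0.056. The bars of immediate-early and stress genes (0.16) and of chemokines (0.26) lay right of that line and the bar of oxidative phosphorylation (-0.059) lay left of it.

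Energy metabolism was the subject of the study. Of 80 nuclear genes of oxidative phosphorylation, 60 were lower and 20 higher in E4 homeostatic microglia, where 38% of all genes were lower. The median ratio was -0.059 where all genes had 0.056, and none of the 80 was 1.5-fold apart, against 4.74% of all genes. Cox4i1, a subunit of cytochrome c oxidase, was at 634 and 637 CPM. Cox7c, of the same complex, was at 430 and 402 CPM, a ratio of -0.10 (-0.16 to -0.04). Cox8a was at 626 and 619 CPM, and Cox6c at 416 and 400 CPM, with intervals that spanned 0. The differences were thus small for single subunits and lay to 1 side across the list. The list holds no subunit that is encoded in the mitochondria. Of those, mt-Atp6, mt-Co1, mt-Co2, mt-Co3, mt-Cytb, mt-Nd2 and mt-Nd4 were higher in E4 in mean UMIs per thinned cell. For mt-Co1 the means were 5.14 and 6.06, for mt-Atp6 8.61 and 9.92, and for mt-Nd2 4.90 and 5.09. The lower levels thus hold for the nuclear genes only. In the shallow, middle and deep class of cells 56, 63 and 65 of the 80 genes were lower in E4. In chemokine-positive cells 68 of 80 were lower, with a median of -0.18, and in border macrophage-gated cells 35 of 70 were, with a median of 0.0062. When cells with any UMI of the chemokine, interferon and disease-associated genes of the rule were left out, 45 of 80 were lower and the median was -0.0099. The part of depth beyond these classes was not tested.

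Of 29 genes of glycolysis, 23 were higher in E4, where 62% of all genes were, with a median of 0.074 against 0.056. Gapdh was at 624 and 671 CPM, a ratio of 0.10 (0.06 to 0.15). Ldhb, a lactate dehydrogenase subunit, was at 542 and 548 CPM. Hk2, the hexokinase that rises in activated microglia, was at 342 and 305 CPM, a ratio of -0.17 (-0.23 to -0.10). The fructose transporter Slc2a5 was at 291 and 295 CPM. The 27 genes of the tricarboxylic acid cycle had a median of 0.060, with 17 higher, so neither list stood away from all genes.

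Immediate-early and stress genes are induced within minutes by signals that include tissue dissociation. Of 24 measured genes, 19 were higher in E4, where 62% of all genes were, with a median of 0.16. In the shallow, middle and deep class of cells the median was 0.042, 0.26 and 0.16, against 0.040, 0.043 and 0.053 over all genes, so in the shallow class the list was near all genes. Fos was at 451 and 615 CPM, a ratio of 0.45 (0.39 to 0.50). Egr1 was at 180 and 281 CPM, a ratio of 0.64 (0.56 to 0.73). Jun was at 1319 and 1570 CPM, a ratio of 0.25 (0.22 to 0.28). Fosb, which lies on the chromosome of Apoe, was at 61.8 and 107 CPM, a ratio of 0.79. The heat shock gene Hspa1b went the other way, at 30.2 and 16.9 CPM and a ratio of -0.84 (-1.10 to -0.58), and Klf2, a flow-responsive transcription factor, was at 220 and 204 CPM, a ratio of -0.11.

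Few cells carried most of this signal. Fos had a UMI in 21.3% (19.7 to 23.01) of E3 and 25.04% (23.4 to 26.7) of E4 cells, and the 10% of cells with the most Fos held 86.6% and 86.7% of its UMIs, with up to 56 and 99 UMIs in 1 cell. Egr1 was more concentrated, with 96.2% and 91.1% of its UMIs in the top 10%. Jun was more even, with a UMI in 66.7% and 69.5% of cells and 52.8% and 54.7% of UMIs in the top 10%.

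The chemokine and cytokine list outside the rule had 22 of 27 genes higher in E4, where 62% of all genes were, and a median of 0.26. In this list 6 genes were at least 1.5-fold higher, where 3.18% of all genes were. Ier3, an early response gene, was at 23.2 and 44.3 CPM, a ratio of 0.93 (0.71 to 1.16). Tnf, tumour necrosis factor, was at 3.85 and 7.25 CPM, from 37 and 91 UMIs, a ratio of 0.91. Nfkbiz, a nuclear regulator of NF-kappaB targets, was at 17.7 and 26.8 CPM, a ratio of 0.60. Il1a, interleukin 1 alpha, was at 38.9 and 50.4 CPM, a ratio of 0.37 (0.19 to 0.56). The rule bounds Ccl3, Ccl4 and Atf3 in these cells, and the part of that bound in the levels of the other chemokines was not tested.

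Interferon-stimulated genes outside the rule had a median of 0.054, with 16 of 26 higher, where 62% of all genes were. Ifitm3, which endothelial cells also carry, was at 53.7 and 35.7 CPM, a ratio of -0.59. In the endothelial list 9 of 10 genes were lower in E4, and the list summed to 587 and 529 CPM. With the 36 and 45 cells richest in that list left out, its sum was 121 and 135 CPM, so the order of the libraries turned. The part of vessel cells in the Ifitm3 ratio was not tested. In the antigen presentation list 11 of 16 genes were lower, where 38% of all genes were, with a median of -0.049. H2-Eb1, H2-Ab1, H2-Aa and Cd74, the MHC class II genes and their chain, were at ratios of -1.60, -0.88, -0.76 and -0.55. They were rare: H2-Aa had 66 and 51 UMIs in 8 and 10 cells, of which 1 E3 cell held 56. The class I genes H2-K1 and H2-D1, seen in most cells, were at 283 and 278 CPM and at 325 and 320 CPM.

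Over all genes with at least 50 UMIs, 550 of 11603 (4.74%) were at least 1.5-fold apart between E4 and E3 homeostatic microglia, 369 higher (3.18%) and 181 lower (1.56%) in E4. When the cells with 20 or more UMIs of another cell type were left out, 326 of 10622 genes were that far apart, 200 higher and 126 lower. With an upper limit of 15000 UMIs per cell the split was 305 higher and 238 lower.

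**Figure D3:**
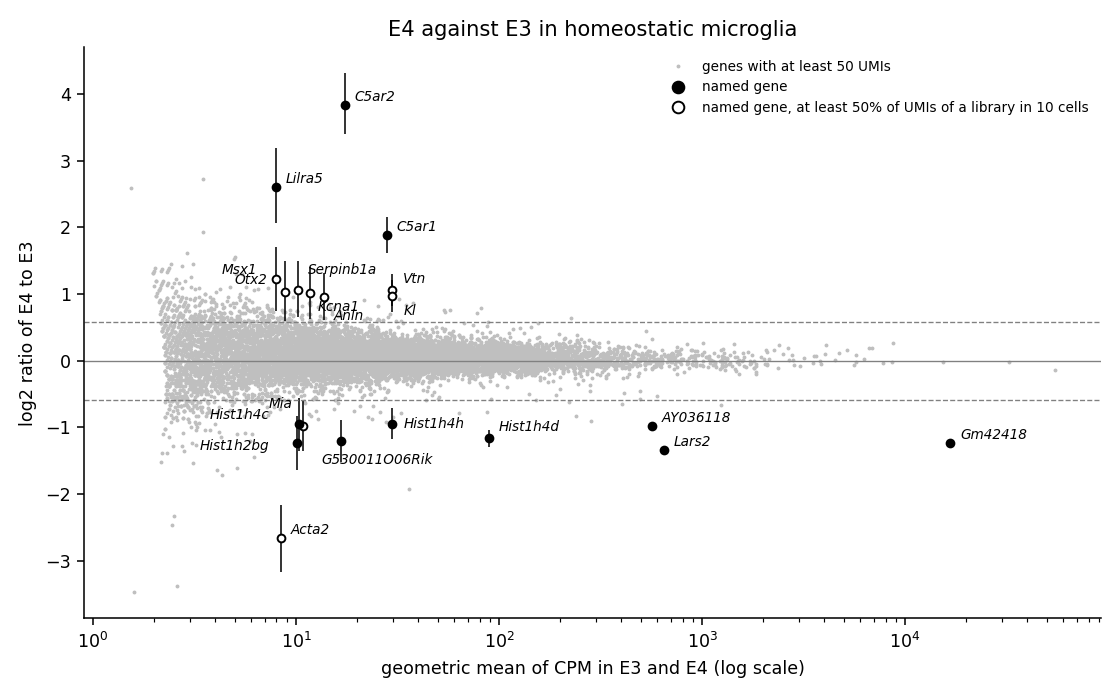
Log2 ratio of E4 to E3 (vertical axis) against the geometric mean of CPM in both libraries (log axis) for genes with at least 50 UMIs in homeostatic microglia. Labelled points are the 20 named genes with exact 95% counting intervals, open where 10 cells held at least 50% of the UMIs of a library, and dashed lines mark 1.5-fold. C5ar2, Lilra5 and C5ar1 are filled points at 3.84, 2.60 and 1.88, the highest ratios of the named genes.

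The 10 highest ratios among genes with at least 200 UMIs, on the same side in each depth class of the cells that could be measured, began with C5ar2, Lilra5 and C5ar1. C5ar1 and C5ar2 are the receptors for the complement fragment C5a, the first coupled to G proteins and the second mainly not, and Lilra5 is an activating receptor of the leukocyte immunoglobulin-like family. All 3 lie on the chromosome that carries Apoe and the human APOE insert. In the GRCm38 annotation C5ar2 is at chr7:16234585-16244154 and C5ar1 at chr7:16246743-16259540, side by side on the minus strand and 3.46 and 3.44 Mb from Apoe at chr7:19696109-19699188. Lilra5 is at chr7:4237754-4243463 on the plus strand, 15.5 Mb from Apoe.

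C5ar2 had 44 UMIs in E3 and 822 in E4 homeostatic microglia, or 4.58 (3.33 to 6.15) and 65.5 (61.1 to 70.1) CPM, a ratio of 3.84 (3.40 to 4.31). It was read in 1.87% of E3 and 24.0% of E4 cells, and after thinning to 1500 UMIs in 0.509% and 10.0%. In C1q-low barcodes it was read in 0 of 5899 in E3, which allows a share of up to 0.0509%, and in 0.258% in E4, with median depths of 4684 and 4565.5 UMIs. The shares in homeostatic microglia were above those in barcodes that should lack the gene in both libraries. C5ar1 had 140 and 674 UMIs, 14.6 and 53.7 CPM, a ratio of 1.88 (1.62 to 2.15), and was read in 5.22% and 19.4% of cells. Lilra5 had 31 and 246 UMIs, 3.23 and 19.6 CPM, a ratio of 2.60 (2.06 to 3.19), and was read in 1.19% and 8.12% of cells. Over all 11603 genes with at least 50 UMIs, the interval of the ratio lay above 0 for 1863 and below 0 for 741. The 3 genes were chosen by their ratios, so it is a description that their E3 and E4 intervals did not overlap. The UMIs were spread over many cells, with at most 6 UMIs of C5ar2 in 1 cell, and without the cells that carried other cells' transcripts the ratios were 3.80, 1.85 and 2.57 for C5ar2, C5ar1 and Lilra5.

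The same genes were read in the neighbouring sets. In chemokine-positive cells C5ar2 was at 7.57 and 58.0 CPM, C5ar1 at 20.5 and 75.2 CPM, and Lilra5 at 8.20 and 19.3 CPM. In border macrophage-gated cells C5ar1 was at 126 and 153 CPM, a ratio of 0.28 whose interval reached from -0.40 to 0.999, and Lilra5 was at 65.3 and 52.8 CPM. The level of C5ar1 in homeostatic microglia was thus below that of border macrophage-gated cells in both libraries. C5ar2 in border macrophage-gated cells was at 9.32 and 39.6 CPM, from 2 and 15 UMIs, against 4.58 and 65.5 CPM in homeostatic microglia, with counting intervals that overlapped in both libraries. Whether the ratio differed between sets was not tested, and whether the difference follows the APOE allele, strain sequence carried along with the insert, or the library cannot be told apart.

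**Figure D4:**
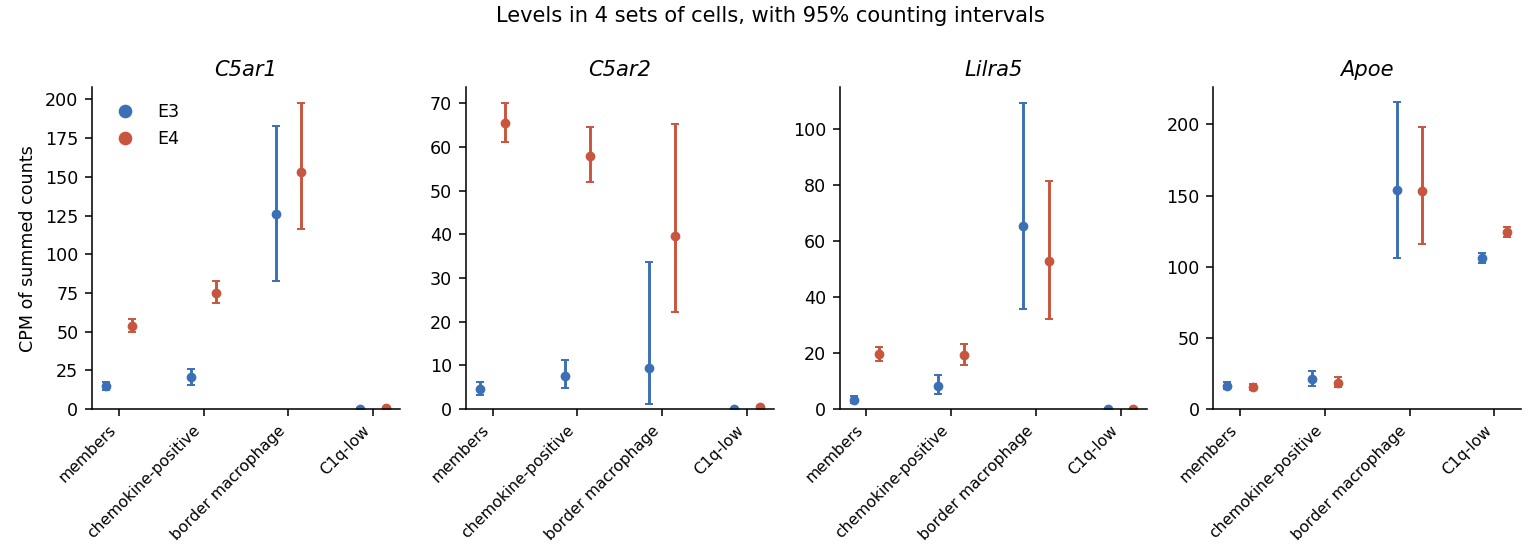
Levels of C5ar1, C5ar2, Lilra5 and Apoe as CPM of summed UMIs (vertical axes from 0, each with its own scale) in 4 sets of cells, with 1 point per library and exact 95% counting intervals. In homeostatic microglia, called members in the plot, E4 lay above E3 for the first 3 genes, at 53.7, 65.5 and 19.6 against 14.6, 4.58 and 3.23 CPM, while Apoe lay at 15.4 and 16.6 CPM. The Apoe counts come from reads aligned to the mouse genome, and how far they measure human APOE was not tested.

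The 250 bases before the annotated start of C5ar2 and Lilra5, the genes with the highest ratios, and of C1qb, a gene of the rule that both libraries carried at a high level, are given 5′ to 3′ on the strand of the gene (RefSeq, GRCm38.p6). Capitals mark matches to the letters AGGAAGT, which the lineage factor PU.1 can bind, in C1qb and C5ar2, and to a composite ETS and IRF site, GGAA and GAAA with any 2 bases between them, in Lilra5, on either strand. They lie on chr4:136886201-136886450 (minus strand), chr7:16244155-16244404 (minus strand) and chr7:4237504-4237753 (plus strand).
C1qb: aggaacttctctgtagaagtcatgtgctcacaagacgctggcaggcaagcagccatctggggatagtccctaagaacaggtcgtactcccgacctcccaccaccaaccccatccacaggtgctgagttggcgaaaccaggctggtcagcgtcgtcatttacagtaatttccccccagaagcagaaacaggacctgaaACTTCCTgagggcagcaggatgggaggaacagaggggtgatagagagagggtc
C5ar2: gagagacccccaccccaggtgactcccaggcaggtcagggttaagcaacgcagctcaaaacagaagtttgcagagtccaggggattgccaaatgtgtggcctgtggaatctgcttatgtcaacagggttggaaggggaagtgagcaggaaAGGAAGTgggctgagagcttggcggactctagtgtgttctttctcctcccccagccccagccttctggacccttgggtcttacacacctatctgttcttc
Lilra5: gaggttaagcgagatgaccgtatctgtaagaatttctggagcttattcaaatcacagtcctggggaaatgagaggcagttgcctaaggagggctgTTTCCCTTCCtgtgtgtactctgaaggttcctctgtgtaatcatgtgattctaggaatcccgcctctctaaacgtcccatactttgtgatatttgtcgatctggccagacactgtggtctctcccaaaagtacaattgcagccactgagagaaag
The matches begin 53, 100 and 155 bases before the start. AGGAAGT was found in 7.80% and the composite site in 2.38% of 27025 promoters of the same length, and the letters were chosen after the sequences had been seen. Among 30 genes of the microglial lists with a window in the table, AGGAAGT was found in 6: C1qb, C1qc, Fcrls, Hpgds, Ltc4s and P2ry12. The composite site was found in 0 of the 30, the AP-1 letters TGANTCA in 0 of the 30, against 6.87% of all promoters, and the MEF2 letters, CTA and TAG with any 4 bases between them, in Cx3cr1 alone, against 3.23%. A match is a description of the letters, and the data do not show whether a factor binds there.

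Genes of the chromosome of Apoe were then counted by distance from it. The counts include C5ar2, C5ar1 and Lilra5, which were already known to stand apart. With other-cell cells left out and at least 200 UMIs required, 6 of 111 genes within 10 Mb of Apoe (5.41%) were at least 1.5-fold apart, 4 of 78 at 10 to 20 Mb (5.13%), 3 of 401 farther along the chromosome (0.748%) and 55 of 7431 on other chromosomes (0.740%). Within 10 Mb these were C5ar2, C5ar1, Inafm1 (0.69), the apoptosis gene Bbc3 (0.69), Fosb (0.77) and Gmfg (-0.60). At 10 to 20 Mb they were Lilra5, Myadm (0.93), the inhibitory receptor Pirb (-0.87) and the zinc finger gene Zfp30 (-0.93). Both directions occurred. These genes were listed after their values were seen.

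**Figure D5:**
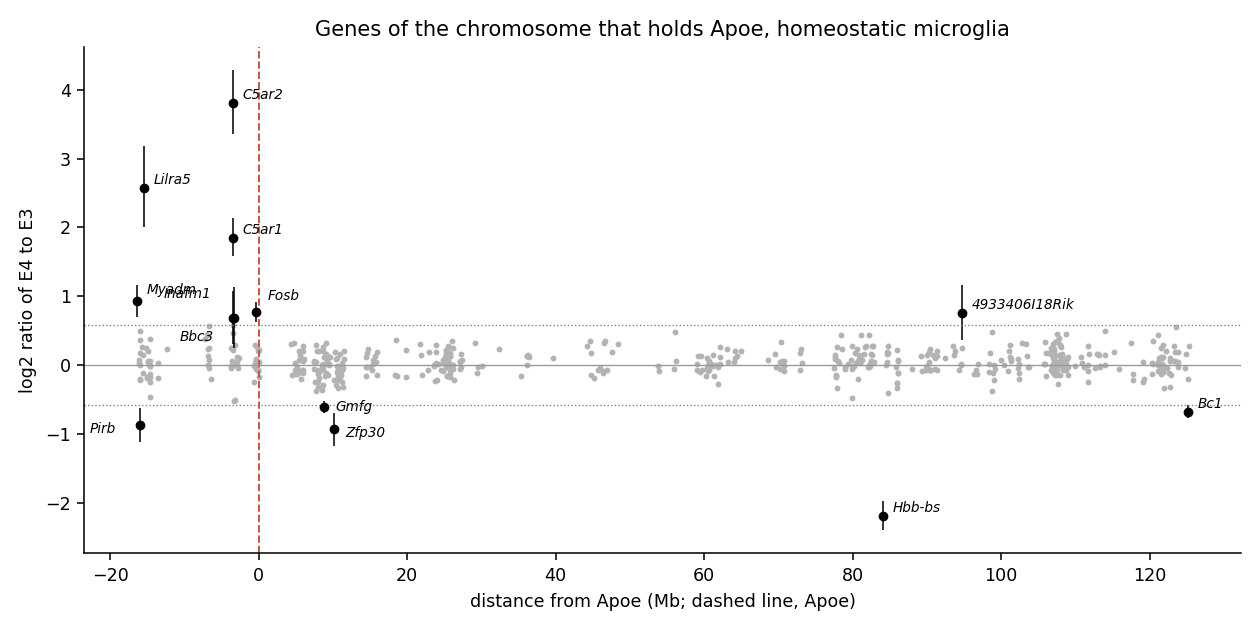
Log2 ratio of E4 to E3 in homeostatic microglia (vertical axis) against the distance from Apoe in Mb (horizontal axis) for genes of that chromosome with at least 200 UMIs, cells with other cells' transcripts left out. Named points are at least 1.5-fold apart (dotted lines) and carry exact 95% counting intervals. 10 of the 13 named points lie within 20 Mb of Apoe.

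The other 7 of the 10 highest ratios were of genes concentrated in a few cells. Msx1, Otx2 and Kl, genes of the choroid plexus, were at ratios of 1.22, 1.03 and 0.97. Vtn, of mural cells, was at 1.05. Anln and Kcna1 were at 0.96 and 1.01 and Serpinb1a at 1.07. Each had a UMI in 1.02% to 3.77% of cells, and without the cells that carried other cells' transcripts Msx1 had 9 and 16 UMIs left, Kl 11 and 22, and Serpinb1a 10 and 9. Otx2 had 8 and 12 UMIs left and Kcna1 5 and 8. Vtn kept a ratio of 0.92 from 49 and 120 UMIs and Anln 0.87 from 17 and 40. The lowest ratio was of the smooth muscle gene Acta2 at -2.65, of whose 202 E3 UMIs 96.5% lay in 10 cells, and without other-cell cells it was at 0.41 from 14 and 24 UMIs. Mia was at -0.98, and at 0.32 without those cells. Msx1, Serpinb1a, Otx2, Kcna1, Kl, Acta2 and Mia had at least 20 UMIs in 1 depth class only. For them the condition of 1 sign rested on that class alone and does not show that the classes were alike.

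The other genes with low ratios were spread over many cells, and all but G530011O06Rik were of 2 kinds. Gm42418, AY036118 and Lars2, which overlap ribosomal RNA sequence, were at 25496, 796 and 1027 CPM in E3 and 10884, 404 and 406 CPM in E4, ratios of -1.23, -0.98 and -1.34. The replication-type histone genes Hist1h4d, Hist1h2bg, Hist1h4c and Hist1h4h were at -1.16, -1.23, -0.96 and -0.94, and G530011O06Rik was at -1.20. Hist1h4d was at 133 and 59.3 CPM and was read in 37.4% and 21.4% of cells. Of all 33 such histone genes measured, a group chosen after these values were seen, 31 were lower in E4 and 20 were at least 1.5-fold lower, where 1.56% of all genes were. Their messages mostly end without a poly(A) tail, and the cell cycle list was at a median of -0.022 with 7 of 11 genes lower. The part of the library in these differences was not tested.

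The cells nearest to homeostatic microglia were the 707 E3 and 1093 E4 chemokine-positive cells, which passed all other limits but had 2 or more UMIs of Ccl3, Ccl4 and Atf3. They were slightly deeper, with medians of 3999 and 4662 UMIs. Since they were set apart by genes of the same cells, the ratios that follow are a description. Of 8953 genes, 35 (0.391%) were at least 1.5-fold higher and 96 (1.07%) at least 1.5-fold lower in homeostatic microglia in both libraries.

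Homeostatic genes outside the rule were higher in homeostatic than in chemokine-positive cells for 37 of 39 genes in each library, with medians of 0.15 in E3 and 0.11 in E4 against 0.068 and 0.067 over all genes. P2ry12 was at 2676 against 2163 CPM in E3 and 2853 against 2463 CPM in E4. Slc2a5 was at 291 against 220 CPM and 295 against 256 CPM. Fcrls, an Fc receptor-like gene of microglia, was at 1456 against 1141 CPM and 1514 against 1245 CPM. The differences were of the same sign in both libraries and small beside those of the response genes.

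Of 25 immediate-early and stress genes, 23 were lower in homeostatic cells in each library, with medians of -2.05 and -1.96. Fos was at 451 against 3329 CPM in E3 and at 615 against 3864 CPM in E4. Dusp1, a phosphatase that ends MAP kinase signals, was at 171 against 1075 CPM and 227 against 1452 CPM. The 10 genes lowest in homeostatic cells, with the genes of the limits left out, were H2-Aa, Fos, Dusp1, Nfkbiz, Ccl2, Egr1, Nr4a1, Adamts1, Tnf and Ier2. The 10 highest were Top2a, Nfasc, 4732440D04Rik, Cenpf, Zfp458, Mttp, 2900093K20Rik, Fbxo2, Hyal1 and Gria2, among them the proliferation genes Top2a, at 12.1 against 3.47 CPM in E3 and 13.9 against 2.31 CPM in E4, and Cenpf.

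Transcription factors divided. Maf was higher in homeostatic cells, at 1037 against 820 CPM in E3 and 980 against 803 CPM in E4. Irf8 and Cebpa were lower, Cebpa at 131 against 213 CPM and 129 against 196 CPM. Oxidative phosphorylation divided by library, with 37 of 80 genes higher in homeostatic cells in E3 (median -0.0055) and 73 of 80 in E4 (median 0.12).

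Levels moved in steps with the number of chemokine-gene UMIs, also inside the rule. Fos was at 390 CPM in the 2031 E3 cells with 0 UMIs of Ccl3, Ccl4 and Atf3, at 806 CPM in the 326 with 1, at 2332 CPM in 239 cells outside the rule with 2 to 4 and at 3794 CPM in 468 with 5 or more. In E4 the steps were 517, 1111, 2318 and 4590 CPM, over 2275, 433, 351 and 742 cells. P2ry12 went down over the same steps, from 2683 and 2638 to 2360 and 2070 CPM in E3, and from 2853 and 2852 to 2669 and 2366 CPM in E4. Within the rule P2ry12 was at nearly the same level in cells with 0 and with 1 UMI, while Fos was at over 2-fold the level in cells with 1 UMI in both libraries.

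Border macrophage-gated cells were 57 in E3 and 94 in E4, with medians of 3014 and 3467 UMIs. Of 8330 genes, 1123 (13.5%) were at least 1.5-fold higher and 519 (6.23%) at least 1.5-fold lower in homeostatic microglia in both libraries. Homeostatic genes outside the rule were higher for 39 and 38 of 39, with medians of 1.88 and 1.81. Sall1 was at 345 against 41.9 CPM in E3 and 379 against 97.7 CPM in E4. Selplg was at 1803 against 168 CPM and 1796 against 391 CPM. Csf1r, which all macrophages need, was nearer, at 2661 against 2153 CPM and 2670 against 1742 CPM.

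Maf, a transcription factor of macrophages, was lower in homeostatic microglia, at 1037 against 2368 CPM in E3 and 980 against 1927 CPM in E4. Lyz2 was at 262 against 5584 CPM and 317 against 5349 CPM. The 10 lowest genes were Lyve1, Ms4a7, Cd163, Cd209f, Clec10a, Ccl7, Cbr2, Wfdc17, Ccl2 and H2-Aa, which are genes of perivascular and meningeal macrophages. The 10 highest were Hbb-bs, Hba-a1, Hba-a2, Hbb-bt, H2-Oa, Il1a, Icam1, Abi3, Nav2 and Thrsp, of which the 4 haemoglobin genes rest on a few cells. Ttr, a choroid plexus gene, was at 48620 and 3770 CPM in border macrophage-gated cells, and its part in these ratios was not tested.

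The remaining sets were too small to describe in depth. Interferon-positive cells were 17 and 39, with medians of 7439 and 11604 UMIs, and homeostatic genes outside the rule were higher in homeostatic cells for 39 of 39 in both libraries. They carried the endothelial gene Flt1 at 2594 and 2791 CPM, against 82.5 and 72.4 CPM in homeostatic microglia, and the part of vessel cells in these ratios was not tested. Disease-associated-positive cells were 9 and 21, and homeostatic genes were higher in homeostatic cells for 37 of 38 in E3 and 31 of 39 in E4.

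Variation among homeostatic microglia was measured with the Fano factor, the variance of a gene's UMIs over its mean after each cell was thinned to 1500 UMIs, which is near 1 where cells differ by counting alone. Over 4369 genes its median was 1.04 in both libraries, and 93.7% and 94.0% of genes were under 1.2. At least 1.5 was reached by 101 genes in E3 and 111 in E4, 93 of them in both. Of the 15 highest in E3, 13 were among the 15 highest in E4. They included Hbb-bs, Ttr, Hba-a1, Hba-a2, Hbb-bt, Enpp2, Ptgds, Cst3, Malat1, Mal, Fos, Jun, Ly6c1 and mt-Atp6. Most of these are transcripts of red cells, choroid plexus, oligodendrocytes and vessels that lay in the few cells described above.

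Without those cells 54 genes reached 1.5 in both libraries, and 13 of them were immediate-early and stress genes. Fos was at 7.75 in E3 and 10.3 in E4. Cst3 was at 9.72 and 9.89. Over all cells, the genes at 1.5 or more in both libraries were 93 of 4369. They included all 3 complement genes of the rule, 2 of its 4 identity genes and 3 of the 39 homeostatic genes outside it. Without the cells that carried other cells' transcripts, 2 complement genes, 1 identity gene and 1 homeostatic gene were left at 1.5 or more in both libraries. Over all cells the Fano factor of C1qb was 2.04 and 2.23, of Cx3cr1 1.72 and 1.80, of P2ry12 1.58 and 1.59, and of Siglech 1.39 and 1.30.

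Pairs of genes moved together across cells in the same way in both libraries. In log counts of thinned cells, over 2357 E3 and 2708 E4 cells that share a library, the correlation of Fos and Jun was 0.60 and 0.64 and that of Fos and Egr1 0.56 and 0.69. Among microglial genes it was 0.54 and 0.53 for Cst3 and C1qa and 0.25 and 0.33 for P2ry12 and Cx3cr1. These correlations include the cells with other cells' transcripts. Against the choroid plexus gene Enpp2, Cst3 was at -0.35 and -0.39 and C1qa at -0.33 and -0.39. The part of such cells in the correlations of microglial genes was not tested. Thinning sets cells to the same depth, and within a fixed number of UMIs a gene can be high only where others are low.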

How the data were processed

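Single-cell 3′ RNA sequencing libraries (10x Chromium v3) were made from E3 and E4 brain, 1 per genotype. The authors aligned the reads to mm10 and deposited raw UMI counts per gene and barcode (Cell Ranger 6.1.2 for E3 and 6.1.1 for E4). The deposited counts of 32285 genes were read without further normalization. Cells were chosen by the limits given above. No doublet caller was run. Counts were summed per library and set of cells and divided by their total (CPM, per 1000000 UMIs), with exact Poisson intervals. Shares had exact binomial intervals, and ratios of E4 to E3 had exact intervals from the binomial split of UMIs, all at 95% and for counting error only. No p-value was computed, since each genotype had 1 library.

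The members and gene lists were chosen with earlier results of these data known. Named genes were the genes of the rule, up to 4 abundant members of each list, the 10 highest and 10 lowest ratios of E4 to E3 with at least 200 UMIs and 1 sign in every depth class of cells that could be measured, the 15 leading genes, the 15 highest Fano factors, and 10 genes at each end of each set. Other genes named in the text were chosen after their values were seen. A few genes that the rule for named genes picks are not reported here. Genes with at least 50 UMIs over both libraries counted as measured. In comparisons of sets at least 100 UMIs were needed per library. Gene positions came from GENCODE vM21 (GRCm38), which held 32158 of 32285 gene identifiers. The steps were tested on simulated counts. Python 3.11.15, numpy 2.4.6, scipy 1.17.1 and pandas 2.3.3 were used.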

Additional observations from a re-analysis of the deposited data

Results flagged for a closer look

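Some differences between E4 and E3 had opposite signs in homeostatic and in chemokine-positive cells, or opposite signs of a difference between these sets in the 2 libraries. None of these differences was tested, since each genotype had 1 library. Genes of oxidative phosphorylation were close to the level of chemokine-positive cells in E3 homeostatic microglia, with a median log2 ratio of -0.0055, and above it in E4, with 0.12.

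For 4 genes of other cell types the ratio of E4 to E3 turned between the sets. It was 1.05 in homeostatic and -0.96 in chemokine-positive cells for Vtn, 1.03 and -0.83 for Otx2, 0.97 and -0.96 for Kl, and -2.65 and 3.58 for Acta2. In homeostatic microglia 10 cells held 71.6% of E3 UMIs of Vtn, 71.2% of Otx2, 86.8% of Kl and 96.5% of Acta2, and the part of these cells in the turn was not tested.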

How the results depend on the processing

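The shares of barcodes, the number of genes 1.5-fold apart, the medians of homeostatic, immediate-early, oxidative phosphorylation and glycolysis genes, the homeostatic median against chemokine-positive cells, the 20 ratios of named genes and the counts of variable genes were recomputed under the alternatives named at the outset that bear on them, and under 2 chosen after seeing the data, which left out cells with 20 or more UMIs of another cell type and barcodes found in both libraries. Of 97 main values under the alternatives, 70 kept their direction and size, 26 moved and 1 turned. Among named genes 171 values were kept, 33 moved and 6 turned. Some kept values could not change: named genes were chosen with at least 200 UMIs, so that setting left their ratios as they were. Taking mitochondrial, haemoglobin and ribosomal transcripts out of the totals shifts every ratio of E4 to E3 by the same amount. Leaving out barcodes found in both libraries removed only 10 E3 and 5 E4 cells. The other lists, the correlations and other values of other sets were not recomputed. No value was computed for a gene under 20 UMIs. No paired analysis was possible because each genotype had 1 library and no test was made.

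The share of barcodes was 15.8% in E3 and 17.0% in E4 with a lower limit of 3000 UMIs, 23.6% and 24.2% with the limits read on thinned cells, 16.1% and 14.5% with no UMI of the chemokine, interferon and disease-associated genes, 7.17% and 5.88% without traces of other cells, and 18.8% and 18.0% without cells with other cells' transcripts. The number of genes 1.5-fold apart was 115 with at least 200 UMIs and 326 without those cells, and between 390 and 624 otherwise.

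The median of oxidative phosphorylation was -0.084 with 3000 UMIs, -0.099 on thinned cells, -0.084 with at most 10% mitochondrial UMIs, -0.078 with reduced totals, -0.085 as a mean over cells, -0.0099 with no UMI of the response genes, -0.084 without traces of other cells, and -0.13 with at most 15000 UMIs, so it was below 0 in all. The homeostatic median was -0.0091 with reduced totals and 0.049 without traces. Against chemokine-positive cells in E4 it was 0.17 without traces and 0.14 without cells with other cells' transcripts. Genes with a Fano factor of at least 1.5 were 224 at 3000 UMIs, 60 without traces and 54 without those cells.

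Mia was at 0.12 with limits read on thinned cells and at 0.32 without cells with other cells' transcripts, where Acta2 was at 0.41. With at most 15000 UMIs Msx1, Otx2 and Kl were at -0.55, -0.58 and -0.61. The cause of these moves was not tested. Depth limits genes near 50 UMIs, whose counting intervals span more than 1.5-fold.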
